A study of Mus musculus with 6 samples.

Results

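Alpha and beta tubulin are encoded by families of closely related genes, and 10 of these genes were followed here in cultured cortical neurons of the mouse carrying either RPL10A-STAMP or RPL22-STAMP. The 10 genes, 4 of alpha tubulin (*Tuba1a*, *Tuba1b*, *Tuba1c* and *Tuba4a*) and 6 of beta tubulin (*Tubb2a*, *Tubb2b*, *Tubb3*, *Tubb4a*, *Tubb4b* and *Tubb5*), were chosen by symbol from 31053 listed genes, with their edits per read (EPR) in view, so their levels are given as a description with no test. In each construct the RNA-editing enzyme rAPOBEC1, which deaminates C to U, is joined to the mouse open reading frame of a large-subunit ribosomal protein, Rpl10a in RPL10A-STAMP and Rpl22 in RPL22-STAMP. EPR is the number of C-to-U edits called on a gene divided by the number of reads counted for it, and edited refers to genes whose EPR exceeds 0. The 3 RPL10A-STAMP and 3 RPL22-STAMP libraries came from wild-type C57BL/6J cortices taken at embryonic day 18. All neurons received floxuridine at DIV 3 against dividing cells, were infected with an AAV at DIV 6, were given Dox at 1 μg/ml for the last 48 h, and were collected at DIV 14. The AAV is a Tet-On vector whose rtTA is driven by a synapsin promoter, which directs expression to neurons, and the cultures can hold other cells too. Replicates are called biological in the methods and technical in the main text of the study, so p values cover the spread between these libraries, which may be technical. Edit counts and read counts per gene were not analysed here, so the depth behind each EPR is unknown and no counting error is given.

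Microtubules are built from dimers of 1 alpha and 1 beta tubulin, and in neurons they give axons and dendrites their shape and serve as tracks for transport. The family members differ mainly in their C-terminal tails, which are the sites of tyrosine removal, glutamylation and other modifications that motors and severing enzymes read. *Tuba1a* is the main alpha tubulin gene of developing neurons, *Tubb3* is the classical neuron-specific beta tubulin, *Tubb2a* and *Tubb2b* are enriched in brain, *Tubb4a* is used by neurons and oligodendrocytes, and *Tuba1b*, *Tuba1c*, *Tubb4b* and *Tubb5* are used by many cell types. *Tuba4a* is known for an alpha tubulin without an encoded C-terminal tyrosine.

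The end of the coding sequence is shown for the 6 beta tubulin genes because it encodes the tail that sets the proteins apart. Each line gives the last 30 coding bases, stop codon included, from the GENCODE transcript with the longest complete coding sequence, and capitals mark bases that differ from *Tubb2a* at the same distance from the stop codon.
Tubb2a: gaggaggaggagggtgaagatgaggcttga
Tubb2b: gaggaggaAgagggCgaGgatgaggcttga
Tubb3: gaggaATCggaAgCCCaGgGGCCCAAGtga
Tubb4a: gaAgaggaggCTgAAgaGgaGgTggcttAa
Tubb4b: gaggaggaggCTgAGgaGgaGgTggcttAG
Tubb5: TTCgGAgaggaggCAgaagaGgaggcCtAa
*Tubb2b* differed from *Tubb2a* at 3 of the 30 bases, *Tubb4a* and *Tubb4b* each at 9, *Tubb5* at 10 and *Tubb3* at 16.

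Over the whole coding sequence, of 444 to 451 codons, the family held 2 sets of near-identical genes. *Tuba1a* and *Tuba1b* shared 98.3% of aligned coding bases, *Tuba1b* and *Tuba1c* 97.9%, and *Tuba1a* and *Tuba1c* 97.1%. *Tubb2a* and *Tubb2b* shared 96.5%. *Tuba4a* stood further off, with 84.7% to 85.2% of its bases shared with the other alpha genes, and every other pair of beta genes shared between 81.2% (*Tubb3* and *Tubb5*) and 84.5%. The stretch in which *Tuba1a* and *Tuba1c* differed most, coding bases 670 to 699 (counted from the start codon), is shown with capitals for differences from *Tuba1a*.
Tuba1a: tacactaacctaaacaggttgataggtcaa
Tuba1b: tacacCaacctTaacCgCCtTatTAgCcaG
Tuba1c: tacacCaacctTaacCgCCtTatTAgCcaG
Even here *Tuba1b* and *Tuba1c* had the same 30 bases, and of 432 such windows, taken in frame along the coding sequence, 326 were identical between *Tuba1a* and *Tuba1c*. *Tubb4a* and *Tubb2a* had 8 identical windows of 422, and at coding bases 157 to 186, where they differed most, the capitals mark differences from *Tubb2a*.
Tubb2a: gaagctgctggcaacaaatatgtacctcgg
Tubb2b: gaagcAActggTaaTaaatatgtGcctAgg
Tubb4a: gaGgcCAcAggTGGAaaCtatgtTccCAgA
At these 30 bases *Tubb4a* differed from *Tubb2a* at 13 and *Tubb2b* at 6.

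**Figure D1:**
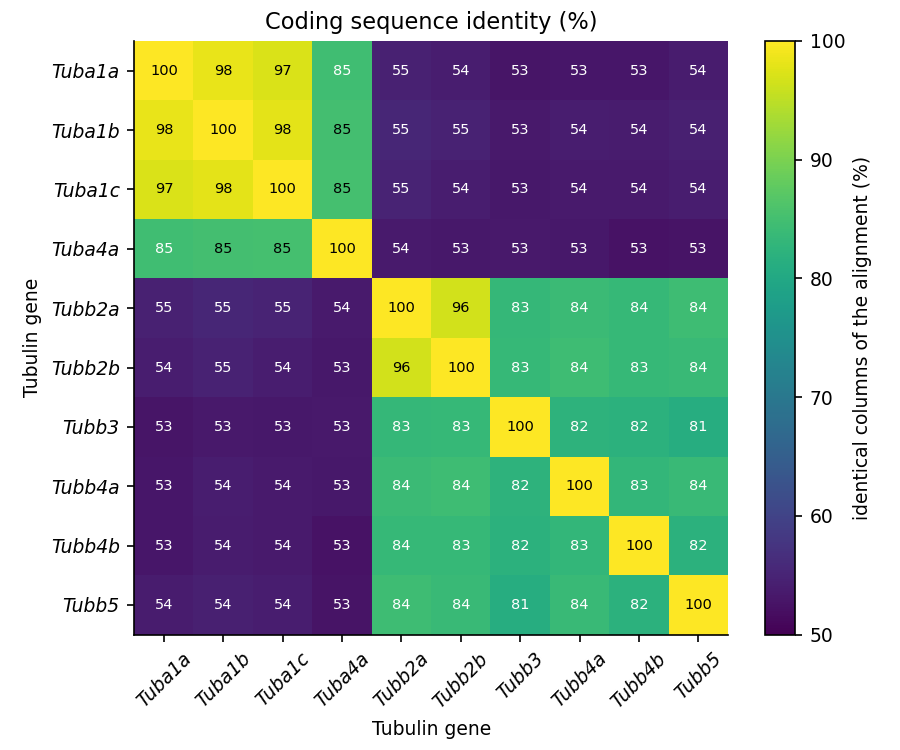
Share of identical bases (colour and printed number, in %) in pairwise alignments of the coding sequences of the 10 tubulin genes, which are on both axes. *Tuba1a*, *Tuba1b* and *Tuba1c* form a block of 97.1% to 98.3%, *Tubb2a* and *Tubb2b* a pair at 96.5%, and alpha and beta genes share 52.5% to 55.4%.

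All 10 genes were edited in all 6 libraries, and they lay on 3 levels, of which the lower ones nearly touched. *Tuba1c* was far above every other member, *Tuba1b* and *Tubb4a* had an EPR of a few edits per 100 reads, and the remaining 7 genes stayed between 0.00308 and 0.0164 in every library. The median EPR of the 8046 genes edited in all 6 libraries was 0.0120, 0.0153 and 0.0161 in RPL10A-STAMP replicates 1 to 3 and 0.00907, 0.0129 and 0.0112 in RPL22-STAMP replicates 1 to 3. *Tuba1c*, *Tuba1b* and *Tubb4a* were above that median in all 6 libraries, and the other 7 genes were below it in 38 of their 42 values.

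**Figure D2:**
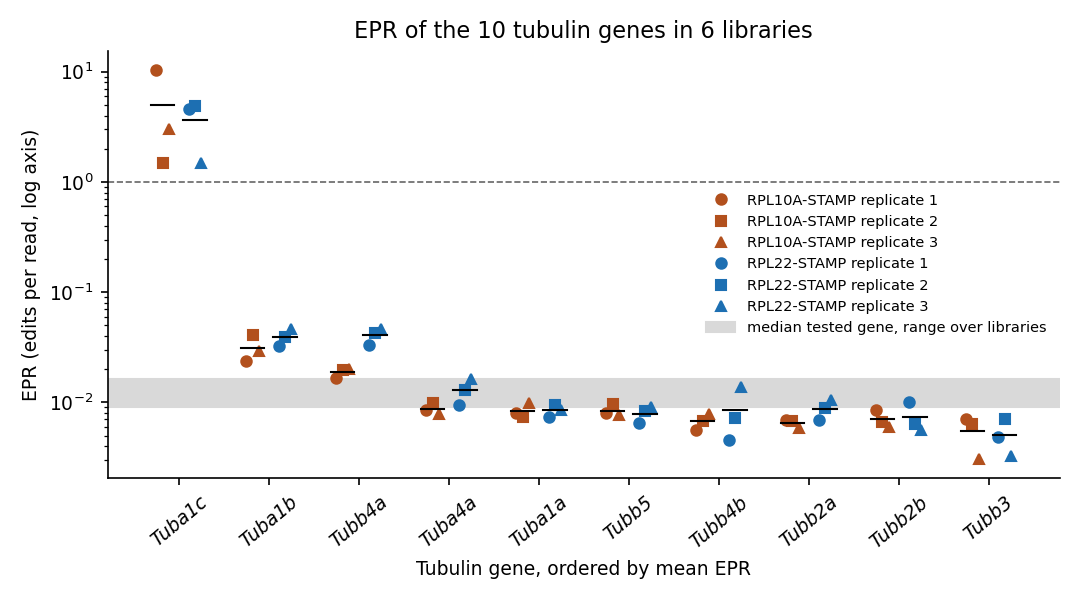
EPR (edits per read, logarithmic axis) of each tubulin gene in each of the 6 libraries, with genes ordered by mean EPR, brown points for RPL10A-STAMP, blue for RPL22-STAMP, the symbol shape for the replicate and black bars for the mean of 3 libraries. The dashed line marks an EPR of 1, the grey band spans the 6 library medians over 8046 genes, and *Tuba1c* alone lies above 1, from 1.5 to 10.3.

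Among the alpha genes, *Tuba1c* (chr15:99029891-99038110, plus strand, GRCm38) had an EPR of 10.3, 1.5 and 3.0 with RPL10A-STAMP and of 4.57, 4.89 and 1.5 with RPL22-STAMP. It was the only member with an EPR above 1, and it was above 1 in all 6 libraries, which means more edits than counted reads. RPL10A-STAMP replicate 1 was highest, both variants reached down to 1.5, and the 2 sets of libraries overlapped. Its mean over 6 libraries was 4.30 ± 3.29 (SD, n = 6), a coefficient of variation of 76.6%, and it ranked at 15 among the 8046 genes, of which 36 (0.447%) had a mean above 1. By this mean *Tuba1c* was 122-fold above *Tuba1b*, the next member, whose highest value was 0.0463. Each *Tuba1c* value can be written as a ratio of small whole numbers, which few counted reads would give. The mean, the rank and the fold thus rest on read numbers that are unknown and may be very small.

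*Tuba1b* (chr15:98931425-98934565, minus strand) had an EPR of 0.0239, 0.0409 and 0.0294 with RPL10A-STAMP and of 0.0323, 0.0394 and 0.0463 with RPL22-STAMP. RPL10A-STAMP replicate 2 fell among the RPL22-STAMP libraries, so the variants overlapped. *Tuba1a* (chr15:98949837-98953703, minus strand), whose coding sequence is the closest to *Tuba1b*, had 0.00799, 0.00738 and 0.00990 with RPL10A-STAMP against 0.00743, 0.00953 and 0.00846 with RPL22-STAMP. These were the least variable values of the family, with a coefficient of variation of 12.6%, and the highest and the lowest both came from RPL10A-STAMP. In each library *Tuba1b* exceeded *Tuba1a*, by 2.97-fold to 5.54-fold. *Tuba4a* (chr1:75214228-75219865, minus strand) had 0.00847, 0.00988 and 0.00784 with RPL10A-STAMP against 0.00938, 0.0128 and 0.0164 with RPL22-STAMP, and RPL22-STAMP replicates 2 and 3 stood above the other 4 libraries.

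Among the beta genes, *Tubb4a* (chr17:57080066-57087782, minus strand) was the most edited, with an EPR of 0.0166, 0.0198 and 0.0203 in RPL10A-STAMP libraries and of 0.0330, 0.0427 and 0.0467 in RPL22-STAMP libraries. Every RPL22-STAMP library was above every RPL10A-STAMP library. *Tubb4b* (chr2:25222160-25224702, minus strand), its namesake, had 0.00565, 0.00672 and 0.00791 with RPL10A-STAMP against 0.00459, 0.00729 and 0.0138 with RPL22-STAMP. The lowest and the highest *Tubb4b* values both came from RPL22-STAMP, and *Tubb4a* exceeded *Tubb4b* in each library, by 2.56-fold to 7.18-fold. *Tubb5* (chr17:35833921-35838306, minus strand) ranged from 0.00647 to 0.00966 with overlapping variants.

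*Tubb2a* (chr13:34074274-34078007, minus strand) had an EPR of 0.00688, 0.00680 and 0.00584 with RPL10A-STAMP and of 0.00685, 0.00882 and 0.0106 with RPL22-STAMP. Its near-identical neighbour *Tubb2b* (chr13:34126748-34130466, minus strand) had 0.00845, 0.00665 and 0.00593 with RPL10A-STAMP against 0.01004, 0.00640 and 0.00562 with RPL22-STAMP. Neither of the pair was the higher throughout: *Tubb2a* was above *Tubb2b* in 3 of 6 libraries, with ratios from 0.682 to 1.88. *Tubb3* (chr8:123411424-123422015, plus strand), the neuronal marker gene of the family, had 0.00702, 0.00643 and 0.00308 with RPL10A-STAMP against 0.00486, 0.00707 and 0.00324 with RPL22-STAMP. Its mean EPR, 0.00528 ± 0.00183 (SD, n = 6), was the lowest of the 10 genes and stood at percentile 6.17 of the 8046 genes. Replicate 3 of both variants was low for *Tubb3*, and the variants overlapped.

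Ordered by mean EPR over 6 libraries, the genes ran *Tuba1c*, *Tuba1b*, *Tubb4a*, *Tuba4a*, *Tuba1a*, *Tubb5*, *Tubb4b*, *Tubb2a*, *Tubb2b* and *Tubb3*. The range of *Tuba1c* did not overlap that of *Tuba1b*, nor did the range of *Tubb4a* overlap that of *Tuba4a*. The latter gap was narrow, from 0.0164 for *Tuba4a* in RPL22-STAMP replicate 3 to 0.0166 for *Tubb4a* in RPL10A-STAMP replicate 1. All other neighbours in this order overlapped. *Tuba1b* was above *Tubb4a* in the 3 RPL10A-STAMP libraries. In the 3 RPL22-STAMP libraries *Tuba1b* was slightly below it, at 0.0323 against 0.0330, 0.0394 against 0.0427 and 0.0463 against 0.0467. With depth unknown, gaps this small do not show a reversed order. The 7 genes from *Tuba4a* down to *Tubb3*, with means from 0.0108 to 0.00528, formed an unbroken series of overlapping ranges.

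Whether the 2 variants edited the tubulin genes to different degrees was asked of log2(EPR + 0.01) in limma, with every library first scaled to its median EPR over the 8046 genes and with Benjamini-Hochberg adjustment over all 8046. One member passed the adjusted threshold of 0.05: *Tubb4a* was higher with RPL22-STAMP. Of all 8046 tested genes, 14.3% were called, 8.51% as higher with RPL10A-STAMP and 5.77% as higher with RPL22-STAMP, so 1 call among 10 genes was near the background. The call for *Tubb4a* held without any 1 library. The count behind that background, 1149 genes, fell to between 355 without RPL10A-STAMP replicate 3 and 780 without RPL22-STAMP replicate 1. How many of the 1149 genes kept their call without any 1 library was not counted, so the 2 statements are not on a like scale.

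For *Tubb4a* the RPL10A-STAMP libraries averaged an EPR of 0.0189 ± 0.00201 (SD, n = 3) and the RPL22-STAMP libraries 0.0408 ± 0.00706 (SD, n = 3), a ratio of 2.16 as deposited. After scaling, the means were 0.0165 ± 0.000823 and 0.0464 ± 0.00533, a ratio of 2.82. With RPL22-STAMP as the reference, the fitted log2 fold change was -1.09 (SE 0.13, limma adjusted p = 0.00483), and the added 0.01 makes this an underestimate where EPR is low. The ratio of *Tubb4a* to the geometric mean of the other 5 beta genes in the same library, which needs no scaling between libraries, was 2.33, 2.76 and 3.51 with RPL10A-STAMP against 5.23, 5.68 and 6.21 with RPL22-STAMP. This ratio was higher in every RPL22-STAMP library than in any RPL10A-STAMP library. It was formed after the values were seen and was not tested. With the trend of EPR with transcript GC content removed from each library, the log2 fold change was -0.77 (SE 0.13, limma adjusted p = 0.0186).

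The other 9 genes did not pass the threshold. Of these, 3 had an unadjusted limma p under 0.05, as had 2486 of all 8046 tested genes. For the alpha genes, the log2 fold change, again with RPL22-STAMP as the reference, was -0.57 for *Tuba1b* (SE 0.17, limma adjusted p = 0.0685) and -0.47 for *Tuba4a* (SE 0.15, limma adjusted p = 0.0796), while *Tuba1a* was at -0.18 (SE 0.12, limma adjusted p = 0.349). *Tuba1c* could not be placed, at -0.23 with an SE of 0.87 (limma adjusted p = 0.882), and its estimate turned to 0.45 without RPL10A-STAMP replicate 2. For the beta genes other than *Tubb4a*, values ran from -0.34 for *Tubb2a* (SE 0.13, limma adjusted p = 0.129) through -0.28 for *Tubb4b*, -0.19 for *Tubb2b* and -0.13 for *Tubb5* to -0.075 for *Tubb3* (SE 0.16, limma adjusted p = 0.793). Whether *Tubb4a* differs from each of these in its response to the variant was not tested.

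All 10 estimates were below 0 after median scaling, but 3 of them (*Tuba1c*, *Tubb3* and *Tubb5*) were above 0 without scaling and 4 (those 3 and *Tuba1a*) were above 0 once the GC trend was removed. The median of the 10 was -0.25, against -0.012 over all tested genes, and it came to -0.071 without scaling, where the median of all genes was 0.18, and to -0.052 with the GC trend removed. Over all tested genes 51.3% of estimates were below 0. As deposited, only *Tubb4a* had variants that did not overlap, against 34.4% of tested genes, of which 28.2% were higher with RPL10A-STAMP and 6.21% with RPL22-STAMP. On the scaled values 6 members did not overlap (*Tuba1a*, *Tuba1b*, *Tuba4a*, *Tubb2a*, *Tubb4a* and *Tubb4b*), all with RPL22-STAMP higher, against 37.1% of tested genes in either direction and 17.1% with RPL22-STAMP higher.

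**Figure D3:**
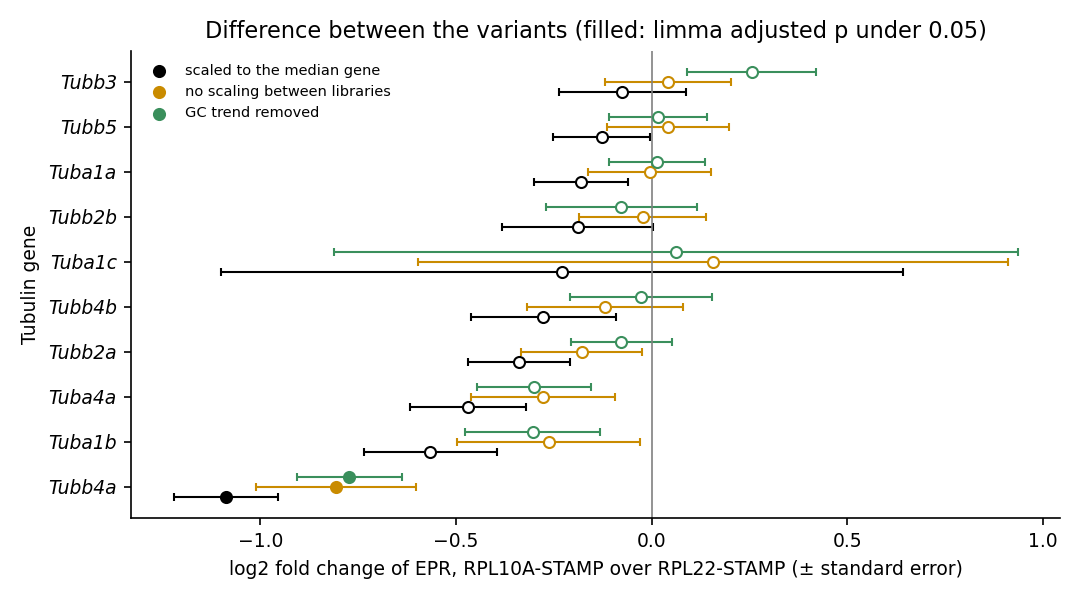
Log2 fold change of EPR (RPL10A-STAMP over RPL22-STAMP, horizontal axis, bars are ± 1 standard error of the limma fit on 6 libraries) for the 10 tubulin genes under 3 treatments of the values. *Tubb4a* is filled, for an adjusted p under 0.05, in all 3 (-1.09, -0.81 and -0.77), and *Tuba1c* has the widest bars.

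All 10 tubulin transcripts were richer in G and C than the median tested gene. Their GC content ran from 51.2% (*Tubb2b*) to 57.9% (*Tubb3*), against a median of 48.9% over 8039 genes with a transcript, and *Tubb4a* stood at 57.2%. The transcripts were also shorter, 1598 bases (*Tubb4b*) to 2840 bases (*Tuba4a*) against a median of 3460. Across the 10 genes, Spearman's rho between GC content and the log2 fold change was -0.20, a description of genes that share sequence and libraries. APOBEC1 is known to favour a C in an AU-rich surrounding, and the share of C flanked by A or U on both sides was lowest in *Tubb4a* (19.7%) and highest in *Tubb2b* (27.3%). The most edited beta gene thus had the smallest share of such C, and rho with mean EPR across the 10 genes was -0.53.

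Since paralogs this close share stretches of sequence, each transcript was cut into all its runs of 50 bases, and each run was looked for in the rest of the genome. A read that lies within a copied run matches more than 1 place. The authors aligned reads with up to 10 places allowed, and how such reads were counted per gene is not given in the sources used here, so EPR is uncertain for members with many copied runs. Of the runs of *Tuba1b*, 82.9% had an exact copy elsewhere, followed by *Tuba1a* with 63.4%, *Tuba1c* with 60.5%, *Tubb4b* with 57.9%, *Tubb2b* with 50.4% and *Tubb2a* with 49.6%. *Tubb3* was at 11.5%, and *Tubb5* (1.38%), *Tuba4a* (1.11%) and *Tubb4a* (0.184%) were nearly unique. Within the coding sequence the share reached 91.2% for *Tuba1b* and 86.9% for *Tuba1c*. Runs of 75 and of 100 bases gave lower shares, down to 68.4% for *Tuba1b* and 48.2% for *Tuba1c* at 100 bases, and none for *Tuba4a*, *Tubb4a* and *Tubb5*.

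**Figure D4:**
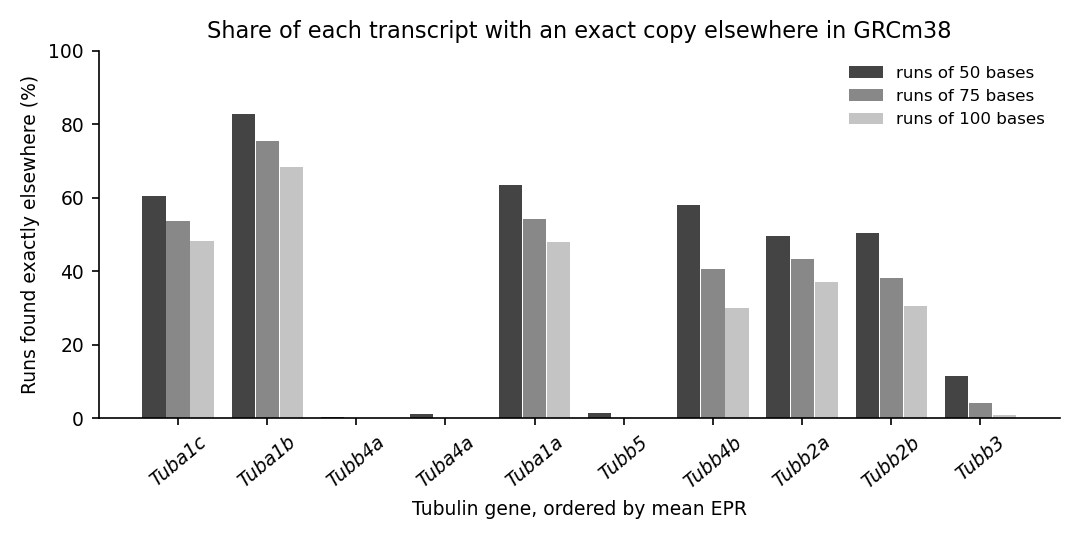
Share (%) of all runs of 50, 75 or 100 bases (dark to light bars) in each tubulin transcript that occur exactly at another place of GRCm38, with genes ordered by mean EPR. *Tuba1c* and *Tuba1b*, the 2 genes of highest EPR, have 60.5% and 82.9% of 50-base runs copied, and *Tubb4a*, the next, has 0.184%.

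The copied share did not order the genes by EPR. Over the whole transcript *Tuba1c* and *Tuba1a* had nearly the same share, 60.5% and 63.4%, and their mean EPR differed 509-fold. *Tubb4b*, at 57.9%, had an EPR of 0.00766 ± 0.00324 (SD, n = 6). The copied runs of the alpha genes lay in different parts. After the stop codon, most 50-base runs of *Tuba1c* and *Tuba1b* had copies, and none of *Tuba1a* did. With runs of 100 bases, only *Tuba1b* of these alpha genes had copies there. Across the 10 genes Spearman's rho between mean EPR and the share of copied runs was 0.21. *Tubb4a*, the one member that passed the test between variants, was the gene with the fewest copied runs. The share of copied runs does not give how many reads counted for a gene came from its own transcript. The part of copied sequence in the EPR of *Tuba1c* was therefore not tested by these comparisons.

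The copies lay in 16 to 18 places for each of *Tuba1a*, *Tuba1b* and *Tuba1c*, and many were processed pseudogenes, which are gene copies made from reverse-transcribed mRNA. Between the spliced transcripts, *Tuba1c* shared 52.0% of its runs with *Tuba1b* and 42.5% with *Tuba1a*. In the other direction, *Tuba1c* held 46.9% of the runs of *Tuba1a* and 59.3% of those of *Tuba1b*. Counted by single stretches of the genome, which splits *Tuba1c* by its introns, the processed pseudogene *Gm17383* held the most runs of *Tuba1a* and *Tuba1b*, 46.6% and 58.7%. The pseudogenes *Gm3226*, *Gm14150*, *Gm3756*, *Gm5620* and *Gm6682* each held between 23.6% and 56.6% of the runs of these alpha genes. *Tubb2a* and *Tubb2b* had 712 runs in common, 45.6% of those of *Tubb2a* and 33.4% of those of *Tubb2b*. *Tubb4b* had 45.6% of its runs in its pseudogene *Tubb4b-ps1* and 22.2% in *Tubb4b-ps2*. The copy of *Tubb3* lay at chr6:136398448-136400093, where the annotation has no gene. None of the pseudogenes named here was among the 31053 listed genes, so they had no EPR in these data.

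Exons also overlapped other annotated genes. *Gm49450*, annotated on the same strand as *Tuba1a* and *Tuba1b*, held 26.2% of the exon bases of *Tuba1a* and 22.7% of those of *Tuba1b*, and its EPR was listed at 0 in all 6 libraries. *Stk16*, a kinase gene on the opposite strand, held 37.3% of the exon bases of *Tuba4a*, and *Fam166a*, also opposite and listed at 0 throughout, held 5.80% of those of *Tubb4b*. The libraries were stranded, but whether reads were counted by strand is not given in the sources used here.

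Of 10 other tubulin genes, 5 were edited in at least 1 library. *Tuba3a*, *Tuba3b*, *Tubal3*, *Tubb1* and *Tubb6* were listed at 0 in all 6 libraries, which can mean no edits or no reads. *Tuba8* had an EPR above 0 in 5 libraries, up to 0.00973, *Tubd1* (delta tubulin) in 3, up to 0.0161, and *Tube1* (epsilon tubulin) only in RPL22-STAMP replicate 2, at 0.292. The genes of gamma tubulin, which nucleates microtubules, were edited in all 6. *Tubg1* had 0.00233, 0.00309 and 0.00276 with RPL10A-STAMP against 0.0113, 0.0112 and 0.00429 with RPL22-STAMP. The variants did not overlap for *Tubg1*, and its log2 fold change was -0.69 (SE 0.20, limma adjusted p = 0.0634). *Tubg2* had 0.00192, 0.00680 and 0.00594 with RPL10A-STAMP against 0.00684, 0.0123 and 0.00838 with RPL22-STAMP. *Tubg2* was called as higher with RPL22-STAMP (log2 fold change -0.53, SE 0.14, limma adjusted p = 0.0487), a call lost under 14 of 16 alternatives.

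Genes that fold, modify, sever or nucleate tubulin were taken from 5 lists, which held 65 genes with the other tubulins included. Of the 42 edited in all 6 libraries, 3 were called as higher with RPL10A-STAMP and 2 as higher with RPL22-STAMP, against 8.51% and 5.77% of all tested genes, and the median log2 fold change was 0.0068. Only 2 list genes were called when RPL10A-STAMP replicate 1, 2 or 3 or RPL22-STAMP replicate 1 or 2 was left out, and 3 without RPL22-STAMP replicate 3. Prefoldin and the chaperonin CCT, which take up and fold newly made tubulin, had 12 tested genes, of which 0 were called by limma. An unadjusted limma p under 0.05 was found for 2 of the 12, against 2486 of all 8046 tested genes. Among 8 tested cofactors and autoregulation genes, *Ttc5*, whose protein recognises tubulin as it emerges from the ribosome and sets off decay of its mRNA, was called. Its EPR was 0.0361, 0.0577 and 0.0556 with RPL10A-STAMP against 0.0206, 0.0250 and 0.0177 with RPL22-STAMP (log2 fold change 0.63, SE 0.16, limma adjusted p = 0.0389), and the call was lost without any 1 library.

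Of 15 tested modifying and severing enzymes, *Atat1*, the alpha tubulin acetyltransferase, was higher with RPL22-STAMP. *Atat1* had an EPR of 0.0194, 0.0310 and 0.0172 with RPL10A-STAMP and of 0.0449, 0.0610 and 0.0707 with RPL22-STAMP (log2 fold change -1.38, SE 0.20, limma adjusted p = 0.00661). The variants did not overlap for *Atat1*, as for *Tubb4a*, and its call held without any 1 library. It was lost, as for *Tubb4a*, with the GC trend removed and the replicate number as a block together (limma adjusted p = 0.0690). *Vash2*, which encodes an enzyme that removes the C-terminal tyrosine of alpha tubulin, was higher with RPL10A-STAMP, at 0.0141, 0.0115 and 0.0144 against 0.00279, 0.00635 and 0.00415 (log2 fold change 0.55, SE 0.14, limma adjusted p = 0.0450). That call was lost without any 1 library. *Ttl*, whose product puts the tyrosine back, did not pass (log2 fold change 0.60, SE 0.19, limma adjusted p = 0.0783). In the gamma-tubulin ring complex, 5 genes were tested, and *Tubgcp5* was higher with RPL10A-STAMP, at 0.0455, 0.0665 and 0.0681 against 0.0105, 0.0166 and 0.0158. Its log2 fold change was 1.24 (SE 0.13, limma adjusted p = 0.00444), and the call was kept under all 16 alternatives.

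**Figure D5:**
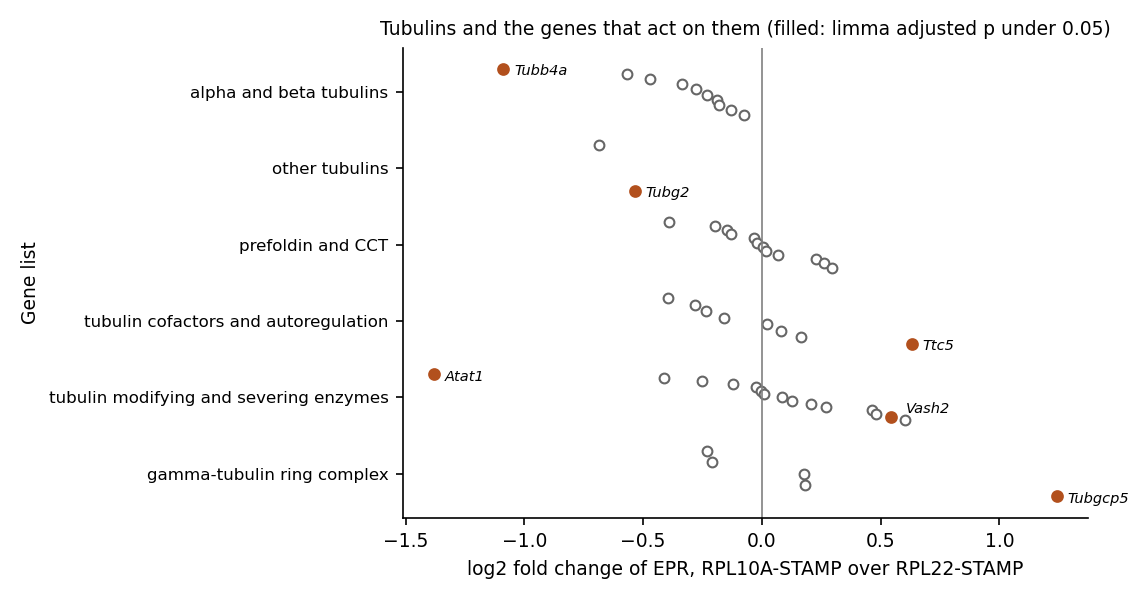
Log2 fold change of EPR (RPL10A-STAMP over RPL22-STAMP) for each tested gene of the tubulin lists, 1 point per gene and 1 row per list, filled and named where the limma adjusted p was under 0.05. *Tubb4a* and *Atat1* lie at -1.09 and -1.38, *Tubgcp5* at 1.24, and no gene of the prefoldin and CCT list is filled.

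The genes whose EPR moved most like that of *Tuba1c* over the 6 libraries, by Pearson's r of log2(scaled EPR + 0.01), were *Pitpnm2* (r = 0.98), *Bahd1* (0.97) and *Bscl2* (0.96) out of 8045 genes compared. The highest of 8045 values of r over 6 libraries can be this large by chance, and *Tuba1c* may rest on few reads. A link between these genes and *Tuba1c* was not tested. For *Tubb4a* they were *Marcksl1*, *Gm27000* and *Dact3*, each with r of 1.00 to 2 decimals, and 40 genes had an r above 0.99. With 6 libraries from 2 variants, genes that differ between the variants are alike by this measure, and all 3 genes listed for *Tubb4a* were called as higher with RPL22-STAMP.

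All 7 neuron markers (*Rbfox3*, *Map2*, *Snap25*, *Syt1*, *Slc17a7*, *Gad1* and *Gad2*) were edited in all 6 libraries. Of these 7, 1 was called, against 14.3% of all tested genes: *Gad2*, a marker of inhibitory neurons, was higher with RPL22-STAMP. Its EPR was 0.00980, 0.0106 and 0.00839 with RPL10A-STAMP against 0.0140, 0.0159 and 0.0143 with RPL22-STAMP (log2 fold change -0.54, SE 0.14, limma adjusted p = 0.0446). Whether this call held under the alternatives was not examined. *Gad1*, the other inhibitory marker, also had variants that did not overlap, with RPL22-STAMP higher, and did not pass (log2 fold change -0.72, SE 0.21, limma adjusted p = 0.0639). *Map2*, *Syt1* and *Slc17a7* went the other way as deposited: their variants did not overlap, with RPL10A-STAMP higher, as for 28.2% of all tested genes. After scaling to the median gene, *Syt1* and *Slc17a7* had variants that overlapped, and *Map2* did not. None of these genes was called. *Map2* had 0.0230, 0.0284 and 0.0301 with RPL10A-STAMP against 0.0122, 0.0169 and 0.0158 with RPL22-STAMP. For *Rbfox3* and *Snap25* the variants overlapped as deposited. After scaling, *Rbfox3* still overlapped, and *Snap25* did not, with RPL22-STAMP higher, as for 17.1% of all tested genes. Neither was called. Of 4 microglia markers, *Csf1r*, *Aif1* and *P2ry12* were listed at 0 in all 6 libraries and *Cx3cr1* was edited in 2, at 0.0143 in RPL10A-STAMP replicate 2 and 0.0364 in RPL22-STAMP replicate 2. Both endothelial markers, *Cldn5* and *Pecam1*, were listed at 0 in all 6. Of 4 astrocyte markers, *Aldh1l1* was edited in 4 libraries, and *Gfap*, *Aqp4* and *Slc1a3* were edited in all 6 libraries and 0 of the 3 were called between the variants by limma (0 at an unadjusted p under 0.05). Among markers of the oligodendrocyte lineage, in which *Tubb4a* is also used, *Mog* was listed at 0, *Pdgfra* was edited in 1 library, and *Mbp* was edited in all 6 libraries, from 0.00206 to 0.0116, with variants that overlapped. The part of inhibitory neurons or of other cell types in the EPR of *Tubb4a* was not tested.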

How the data were processed

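Primary cortical neurons with RPL10A-STAMP or RPL22-STAMP (3 libraries each) were sequenced as stranded polyadenylated RNA. The authors used cutadapt for trimming, STAR for alignment to mm10, SAILOR for edit calling and featureCounts for reads per gene, and deposited 1 ratio per gene, EPR, not normalized between libraries. Gene annotation and read handling for copied sequence are not given in the sources used here. The depth behind each ratio is unknown.

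Of 31053 identifiers, 31011 were matched to GENCODE mouse release 21. Genes edited in all 6 libraries (8046) were tested with limma 3.58.1 in R 4.3.3 on log2(EPR + 0.01), each library rescaled so that its median equals the geometric mean of the 6 medians, with a variance trend and Benjamini-Hochberg adjustment (threshold 0.05). The script was tested on simulated data. Copies were exact matches of the transcript with the longest complete coding sequence to GRCm38, on both strands. The ends of the alpha tubulin coding sequences are not reported here. The members and gene lists were chosen with earlier results of these data known. Named were all members, other tubulins, list genes past the threshold, the 3 genes most like *Tuba1c* and *Tubb4a*, and genes that hold copies. *Ttl* and *Tubg1* are named with values though they missed the threshold. Alternatives changed the pseudocount, scaling, filter, variance trend, GC trend, replicate block, run length and the libraries used. Other tools were Python 3.11.15 with Biopython 1.88, pandas 2.3.3, scipy 1.17.1, matplotlib 3.10.9 and numpy 2.4.6.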

Additional observations from a re-analysis of the deposited data

How the results depend on the processing

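The call for *Tubb4a* held under 15 of 16 alternatives, with log2 fold changes from -1.44 to -0.33 and limma adjusted p from 0.00413 to 0.0621. With the GC trend removed and the replicate number as a block together, 0 members were called by limma (1 at an unadjusted p under 0.05), *Tubb4a* was at -0.77 (limma adjusted p = 0.0621), and *Atat1* was at -1.07 (limma adjusted p = 0.0690). In that setting 227 of 8039 tested genes were called, and 2064 had an unadjusted limma p under 0.05. The replicate block alone called 603 genes, 1 member and 2 list genes. Same-numbered libraries of the variants deviated together little (r of 0.044, 0.046 and -0.0055 over genes), and libraries of different numbers had r from -0.049 to 0.0041. Shifts shared by whole libraries were scaled out first and each variant had 3 libraries. These r therefore cannot tell whether the numbers pair the libraries. Of all tested genes, 754 were called among genes edited in at least 3 libraries, 569 without a filter, 662 with the GC trend removed, and 355 to 780 with 1 library left out (642, 419 and 355 without RPL10A-STAMP replicates 1, 2 and 3, 780, 725 and 553 without RPL22-STAMP replicates 1, 2 and 3). List genes called numbered 2 with either other filter and with the GC trend and block together, and 2 to 3 with 1 library left out. Leaving out 1 library kept 1 member called. Without scaling, the calls split 956 to 129 for RPL10A-STAMP, against 685 to 464.

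Signs turned for *Tuba1c* (0.16 without scaling, 0.061 with the GC trend removed, -1.11 to 0.45 with 1 library left out), *Tubb3* (0.041, 0.26 and -0.18 to 0.056), *Tubb5* (0.042 and 0.016) and *Tuba1a* (0.013 with the GC trend removed), each with the same value when the block was added to the GC trend, and none of these was called. *Tuba1c* turned without RPL10A-STAMP replicate 2 and without RPL22-STAMP replicate 1, and *Tubb3* without RPL10A-STAMP replicate 3. The median share of copied runs over the 10 genes was 49.97% with runs of 50 bases, 39.5% with 75 and 30.2% with 100. *Tuba1c* was the 1 member with a mean above 1 under each alternative, by the median, after scaling and without each library. The cause of the lost and turned values was not tested. Depth limits all values to an unknown degree, and groups of 3 libraries are too small to single out a library for one gene.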
